A study of Sus scrofa with 18 samples.

Results

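Serum taken in cardiogenic shock (CS) and serum taken after a percutaneous ventricular assist device (pVAD) had been started in the same animals were compared by RNA sequencing, with 11 of the 18 libraries of the study. The members were chosen by their labels: all 6 libraries of the pVAD time point, and the 5 CS libraries left after CS replicate 6, whose total of 2484066 counts was far below that of the others, had been left out. All samples came from female Danish Landrace pigs of 5 months, which were anesthetized and served as their own controls. CS had been induced by injecting polyvinyl alcohol microspheres stepwise into the left main coronary artery. The pVAD, an Impella CP pump that draws blood from the left ventricle and delivers it to the aorta, was started after the onset of CS, so that the pVAD time point is CS with support and not recovery from CS. The 6 Baseline libraries, taken from the same pigs under anesthesia before CS, entered the fit and are given as reference. Libraries of 5 of the 6 pigs cover both time points, namely pigs 3, 10, 12, 8 and 4, which are replicates 1 to 5 in this order. Pig 6 gave pVAD replicate 6 and has no CS library here. CS always preceded pVAD in an animal, so that support cannot be told apart from time in shock, anesthesia and the blood sampled before.

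Serum holds RNA that has left its cell of origin, enclosed in vesicles, bound to proteins or released from damaged cells, together with RNA of blood cells that break during sampling or clotting. Lymphocytes, platelets, red cells, the liver, vessel walls and striated muscle can all contribute. A pump that unloads the left ventricle relieves its wall of work and restores flow to organs that were short of it, and it also exposes blood to shear. A change in the abundance of a serum transcript can therefore come, among other sources, from the number of cells that release it or from the RNA per cell. These cannot be told apart in bulk serum.

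The 5 CS libraries held 28067154 to 71488943 counts and the 6 pVAD libraries 34550359 to 49509596. Levels are given as CPM, read counts scaled to a common library size, after TMM scaling had set that size. CS replicates 1 and 4 stood apart from the other CS libraries. In CS replicate 1 (pig 3), 15.8% of the 26146 tested transcripts had no read, against 1.41 to 9.73% in the other CS and pVAD libraries. In CS replicate 4 (pig 8), 4 transcripts took up 71.5% of all counts and the TMM factor was 0.307, the lowest of all libraries. The library with the next lowest factor was pVAD replicate 6, at 0.454, where 4 transcripts took up 57.6%. Counts below are therefore also given without CS replicates 1 and 4.

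The shares of the main RNA classes differed between CS and pVAD by less than the standard deviation within either time point. Nuclear protein-coding genes took up 48.8 ± 18.2% of the counts in CS (SD, n = 5) and 50.9 ± 13.5% on pVAD (n = 6), and long noncoding RNA (lncRNA) genes 39.6 ± 15.4% and 36.5 ± 9.40%. The share of mitochondrial ribosomal RNA was 5.17 ± 2.02% in CS and 4.37 ± 2.06% on pVAD, and it was lower on pVAD in 4 of the 5 animals. The 4 most abundant transcripts of a library took up 44.7 ± 17.6% of the counts in CS and 37.7 ± 10.6% on pVAD, also lower in 4 of the 5 animals. Read at the depth of the smallest library, 24094 ± 1623 transcripts were present in CS and 25080 ± 592 on pVAD. Over 10 such measures the smallest p was 0.156 between groups (exact permutation test, two-sided) and 0.188 within animals (exact sign-flip test, two-sided, smallest possible p 0.0625), with adjusted values of 0.746 and 0.625.

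**Figure D1:**
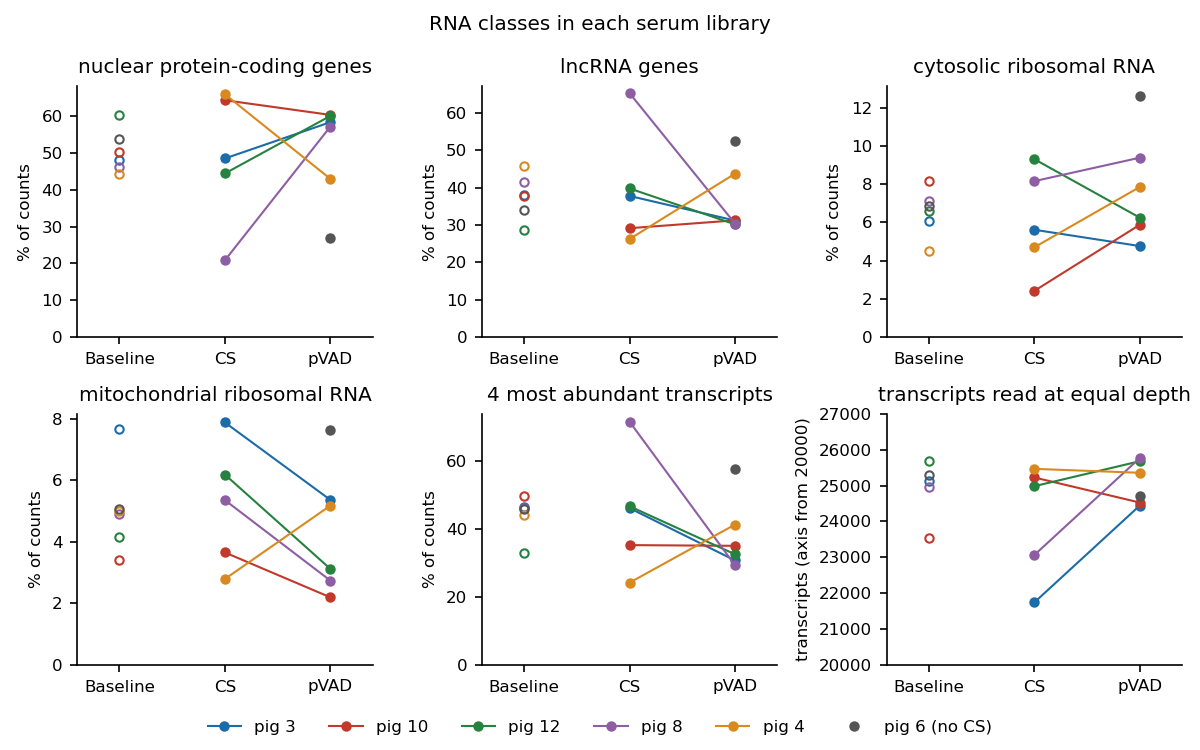
Share of counts on 4 RNA classes and on the 4 most abundant transcripts (%), and transcripts read at equal depth (on an axis that does not start at 0), at Baseline (open circles), in CS and on pVAD (filled circles). Lines join the CS and pVAD libraries of an animal. The CS library of pig 8 stands out with 20.9% protein-coding and 65.2% lncRNA counts, and no panel separates CS from pVAD.

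Of 42 defining markers of 14 cell types, 33 could be measured and 31 were read in each of the 11 libraries. The albumin gene ALB had 15.4 to 33.8 CPM in CS and 15.4 to 37.0 on pVAD, the hemoglobin gene HBB 290 to 712.5 and 146 to 711, and the endothelial PECAM1 32.2 to 44.7 and 32.0 to 41.2. Markers of the skin were read too, such as KRT5 of keratinocytes with 41.3 to 85.9 CPM in CS and 69.3 to 90.9 on pVAD. ALAS2 of red cell precursors, LYZ of myeloid cells and CD79A of B cells had no read in any library. A list that carries the name of a cell type is for this reason a set of genes and not a count of cells. Of the 33 markers only SFTPC, described below, differed between CS and pVAD at p below 0.05.

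Across the 26146 transcripts with at least 5 reads in total, 635 (2.43%) passed the threshold of the study, which asks for a fold change of more than 1.5 at p below 0.05 without adjustment. Of these, 289 (1.11% of all tested) increased on pVAD relative to CS and 346 (1.32%) decreased. Of the decreased transcripts 257 were protein-coding, and the decreased transcripts had a median of 212 reads per library. The increased transcripts, 142 of them protein-coding, had a median of 18.4 reads per library, and 82 had no read in any CS library. With the Benjamini-Hochberg adjustment of the edgeR quasi-likelihood test no transcript stayed below 0.05, the smallest adjusted p being 0.999. In this test 695 of the 26146 had an unadjusted p below 0.05. That is a smaller share than the 0.05 that would pass with evenly spread p-values if no transcript differed. DESeq2 gave 908 transcripts at an unadjusted p below 0.05 and none at an adjusted p below 0.05 (smallest 0.346). Transcripts named below are given with their log2 change and a standard error (SE), and each has an adjusted edgeR p of 0.999. The SE is the absolute log2 change divided by the square root of the F statistic of the edgeR test. It is thus derived from the test and only approximate, above all where a group has no read. "Called" refers to the threshold of the study, without adjustment.

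**Figure D2:**
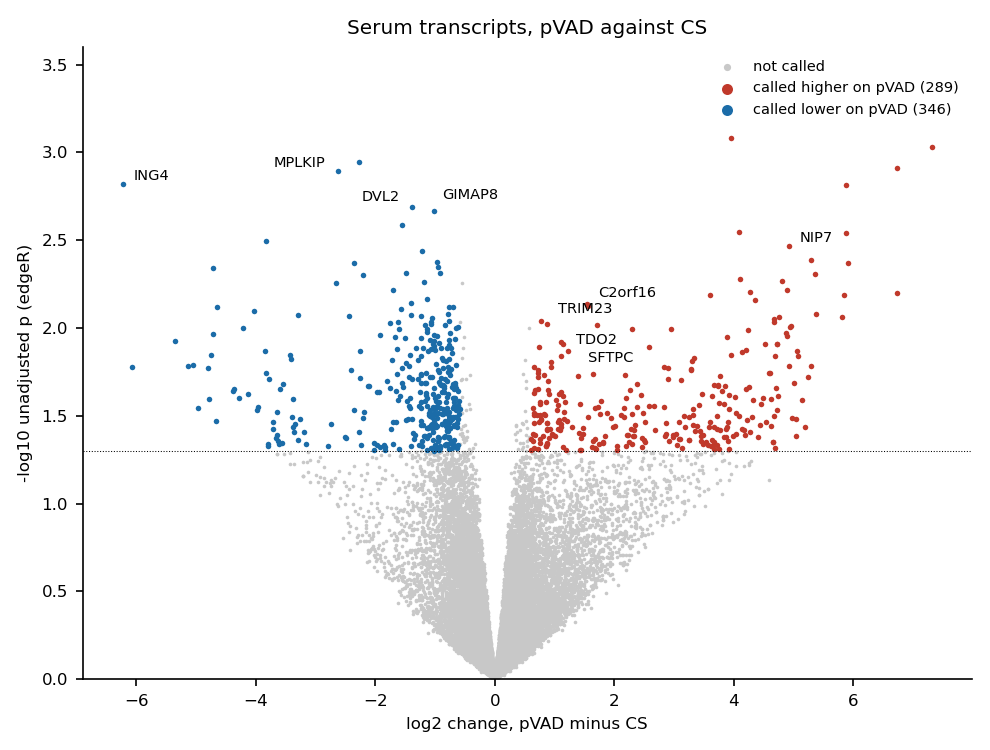
Log2 change from CS to pVAD (x axis) against -log10 of the unadjusted edgeR p (y axis) for 26146 serum transcripts, with the 289 called higher in red and the 346 called lower in blue. The dotted line marks the p threshold of 0.05, and the largest changes on both sides belong to transcripts with few reads.

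Within animals, 103 of the 289 increased transcripts were higher on pVAD in all 5 pigs, and 81 of the 346 decreased transcripts were lower in all 5. Over all tested transcripts, 706 were higher and 450 lower in all 5 pigs. For 25 of the increased and 9 of the decreased transcripts the CS and pVAD libraries did not overlap, out of 43 and 18 such transcripts among all tested. With the animal as a block in the fit of 17 libraries 489 transcripts passed (239 increased, 250 decreased), 258 of them among the 635. In the 10 paired libraries alone 408 passed (187 increased, 221 decreased), 183 of them among the 635.

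Single CS libraries carried much of the decrease. CS replicate 1 was the highest CS library for 218 of the 346 decreased transcripts and CS replicate 4 for 96. Among the 289 increased transcripts, pVAD replicate 6, the library without a CS partner, was the highest pVAD library for 122. How often each library was the highest of its group over all tested transcripts was not counted. Without CS replicate 1, 388 transcripts passed and 251 of the 635 calls were kept. Without CS replicate 4, 561 passed and 346 calls were kept. With both left out, 239 transcripts passed, 140 increased and 99 decreased, and 67 of the 289 increases and 43 of the 346 decreases were kept. The total also moved to 999 without CS replicate 2 and to 960 without CS replicate 5.

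Transcripts that decreased in every animal came from several parts of the cell. They included MPLKIP, which is mutated in a form of trichothiodystrophy in humans, the Wnt signal transducer DVL2, the leukocyte tetraspanin CD37, the splicing factor RBM25 and the mitochondrial protease CLPP. Among transcripts with a gene symbol and an average of at least 10 reads per library, 54 were called lower and were lower in all 5 pigs, and the 15 with the smallest p are described here. All 15 were also called by DESeq2. A direction counted at any size: the log2 difference of RBM25 was -0.0012 in pig 4 and that of CD37 -0.08 in pig 12. CS replicate 1 or CS replicate 4 was the highest CS library for each of the 15 (9 and 6), and 2 of the 15 stayed called without these libraries.

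MPLKIP (ENSSSCG00000016768) had 9.84, 1.698, 1.58, 2.19 and 2.85 CPM in CS replicates 1 to 5 and 0.872, 0.382, 0.766, 0.446, 0.934 and 0.0985 CPM in pVAD replicates 1 to 6. All pVAD libraries lay below all CS libraries, and the abundance fell in every pig (log2 change -2.62, SE 0.71). Its Baseline libraries ranged from 0.143 to 4.05 CPM and thus over both groups. Without CS replicates 1 and 4 the log2 change was -1.79, still past the threshold.

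DVL2 (ENSSSCG00000025689), one of the Dishevelled proteins that pass the Wnt signal from Frizzled receptors to beta-catenin, had 24.2, 7.296, 7.86, 6.65 and 5.72 CPM in CS and 4.05, 4.16, 4.06, 4.37, 4.97 and 2.07 CPM on pVAD. The groups did not overlap, with a single CS library, that of pig 3, well above the rest (log2 change -1.39, SE 0.40). The change in a pig ranged from -2.57 to -0.20, and it was -0.81 without CS replicates 1 and 4, where DVL2 remained called. At Baseline DVL2 had 3.25 to 14.4 CPM.

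TADA1, a subunit of the SAGA histone acetyltransferase complex, was the third decreased transcript among the 15 whose groups were apart. It had 9.89, 4.78, 5.36, 8.19 and 5.299 CPM in CS and 2.73, 3.82, 3.89, 2.65, 4.65 and 2.76 CPM on pVAD (log2 change -0.97, SE 0.35). The highest pVAD library lay just below the lowest CS library. Leaving out any single CS or pVAD library kept the call, and leaving out CS replicates 1 and 4 together ended it at a log2 change of -0.59.

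CD37, a tetraspanin of B cells and other leukocytes, had 22.6, 16.4, 7.42, 87.6 and 8.08 CPM in CS and 10.3, 12.4, 7.01, 8.07, 7.08 and 16.2 CPM on pVAD. The fall was carried by pig 8, whose CS library held several times the level of any other (log2 change -1.48, SE 0.48). Without CS replicate 4 the log2 change was -0.43 and CD37 was no longer called. RBM25, an RNA-binding protein that regulates splice site choice, went from 36.1, 23.2, 23.2, 55.2 and 19.9 CPM to 19.2, 16.98, 16.2, 18.8, 19.9 and 25.1 CPM (log2 change -0.70, SE 0.24). It too lost its call without CS replicate 4, at a log2 change of -0.41.

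FBRS, the fibrosin gene, and YWHAH, which encodes the eta form of the 14-3-3 adapter proteins, kept their calls when each CS and pVAD library was left out in turn and with the animal as a block. FBRS had 60.3, 22.99, 17.5, 55.7 and 13.4 CPM in CS and 22.03, 19.7, 9.44, 10.95, 11.6 and 19.01 CPM on pVAD (log2 change -1.14, SE 0.38). YWHAH had 14.4, 6.79, 6.45, 13.2 and 6.65 CPM in CS and 6.597, 2.31, 5.29, 4.66, 5.19 and 5.76 CPM on pVAD (log2 change -0.93, SE 0.34). For both genes the CS libraries of pigs 3 and 8 were the highest and the other CS libraries lay within or close to the pVAD range. Without these 2 libraries the log2 changes were -0.22 and -0.42, and neither passed.

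GOT1, the cytosolic aspartate aminotransferase, had 11.3, 10.2, 8.195, 21.7 and 7.38 CPM in CS and 5.71, 7.801, 7.03, 8.300, 6.02 and 5.86 CPM on pVAD (log2 change -0.79, SE 0.27). Its groups overlapped only through the 2 lowest CS libraries. CLPP, the proteolytic subunit of a mitochondrial matrix protease, had 7.97, 3.47, 3.86, 12.8 and 2.96 CPM in CS and 3.87, 2.31, 2.99, 3.82, 2.69 and 1.28 CPM on pVAD (log2 change -1.13, SE 0.40). PRKAG1, a regulatory subunit of the energy sensor AMPK, had 7.97, 1.46, 0.8001, 0.683 and 1.04 CPM in CS and 0.109, 0.6996, 0.708, 0.496, 0.543 and 0.0493 CPM on pVAD (log2 change -2.44, SE 0.85). PRKAG1 rested on pig 3, and its log2 change was -1.18 without CS replicate 1. GOT1 and CLPP had log2 changes of -0.45 and -0.68 without CS replicate 4, and none of the 3 passed in these fits.

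The remaining 5 of the 15 also lost their calls with a single library. Without CS replicate 1 the log2 change of ZIC5, a zinc finger transcription factor, went from -1.18 to -0.64, that of the junctional adhesion molecule JAM3 from -0.61 to -0.27 and that of RBBP6, a ubiquitin ligase that binds the retinoblastoma protein, from -1.02 to -0.42. Without CS replicate 4 the ribosome-binding protein gene RRBP1 went from -0.75 to -0.38 and SHISA5, a p53-inducible gene of the endoplasmic reticulum, from -0.76 to -0.46. JAM3 also fell below the fold limit without pVAD replicate 1 (-0.58) or pVAD replicate 5 (-0.56). With the animal as a block in 17 libraries PRKAG1 (-1.51), JAM3 (-0.54) and RRBP1 (-0.54) no longer passed, and in the 10 paired libraries CLPP (-0.78) and SHISA5 (-0.57) were lost as well.

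Transcripts that increased in every animal included 1 member each of the alveolar, hepatocyte, platelet and smooth muscle lists, namely SFTPC, TDO2, GP6 and S1PR3. No other member of these lists was called. The median log2 changes of the lists were 0.09, -0.01, -0.05 and 0.02, respectively. By the same rule 36 transcripts were called higher and were higher in all 5 pigs. The 15 with the smallest p were also called by DESeq2 and with the animal as a block in 17 libraries. Without CS replicates 1 and 4, 5 of them stayed called.

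**Figure D3:**
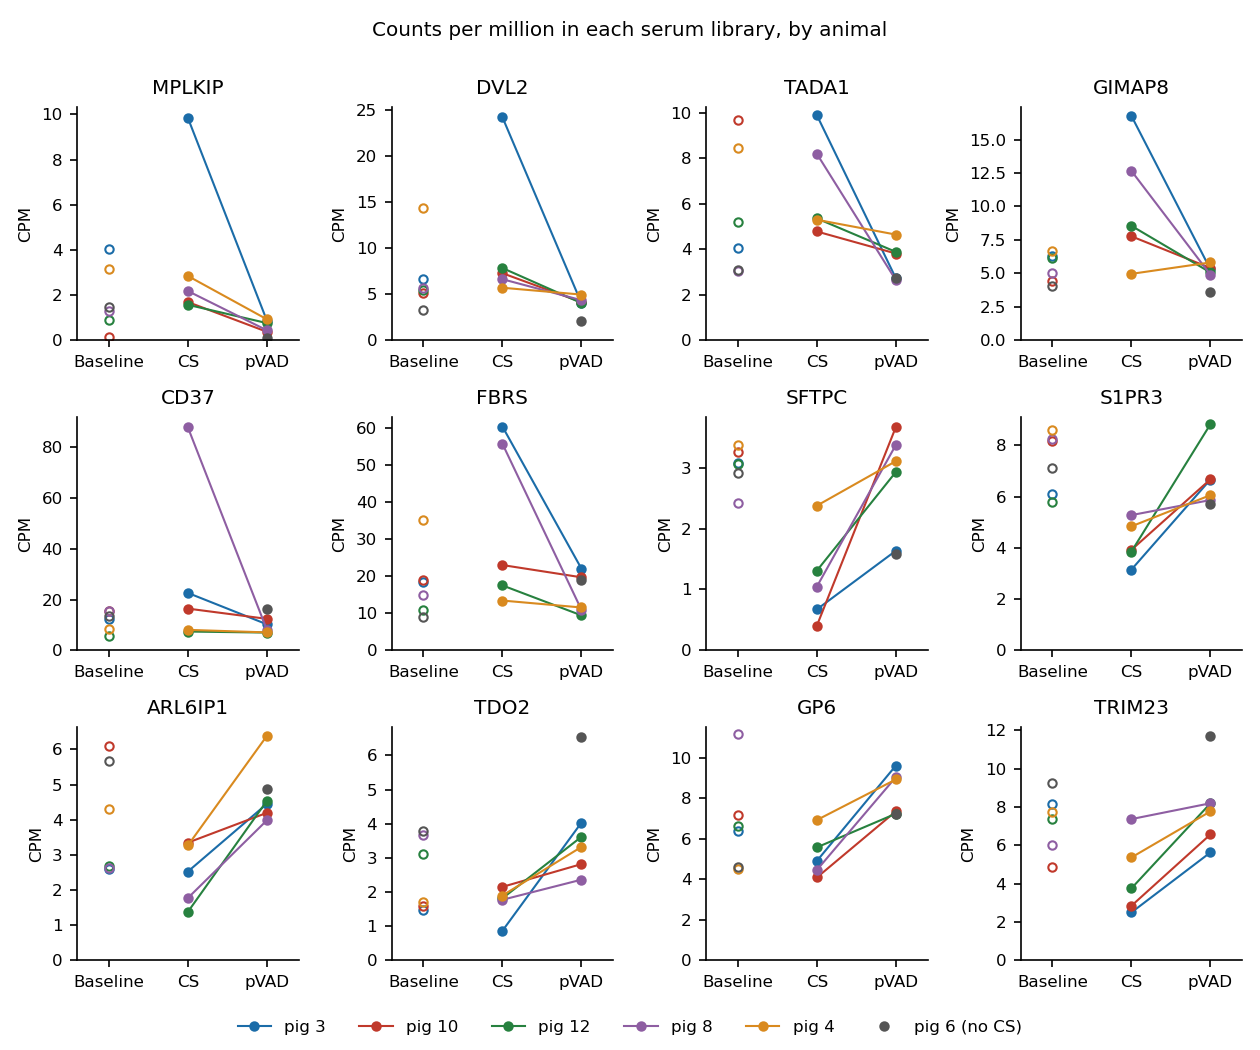
CPM of 12 transcripts at Baseline (open circles), in CS and on pVAD (filled circles), with lines joining the CS and pVAD libraries of an animal. MPLKIP, DVL2 and TADA1 have all pVAD libraries below all CS libraries, and S1PR3, ARL6IP1, TDO2 and GP6 have all pVAD libraries above all CS libraries.

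SFTPC (ENSSSCG00000009619), surfactant protein C of type II alveolar cells, had 0.674, 0.407, 1.31, 1.05 and 2.38 CPM in CS and 1.64, 3.67, 2.93, 3.37, 3.11 and 1.58 CPM on pVAD (log2 change 1.22, SE 0.46). These values rest on 28, 17, 54, 23 and 130 reads in CS and 90, 173, 153, 204, 143 and 32 reads on pVAD. Every pig went up, and the groups overlapped only through the CS library of pig 4 and the pVAD libraries of pigs 3 and 6. Without CS replicates 1 and 4 the log2 change was 0.99 and SFTPC was no longer called. The Baseline libraries held 2.42 to 3.37 CPM, all above the CS libraries. SFTPB and AGER, further alveolar markers, gave log2 changes of 0.61 (SE 0.44) and 0.22 (SE 0.46), and 1 of 12 genes of the alveolar list was called.

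S1PR3, a sphingosine-1-phosphate receptor of vascular smooth muscle and endothelium, had 3.15, 3.92, 3.86, 5.28 and 4.84 CPM in CS and 6.67, 6.68, 8.83, 5.87, 6.06 and 5.71 CPM on pVAD (log2 change 0.66, SE 0.25). Its groups did not overlap, and Baseline had 5.79 to 8.601 CPM. The change lay near the fold limit of 1.5, and S1PR3 was not called without CS replicate 1 (0.57) or pVAD replicate 3 (0.56) or in the 10 paired libraries (0.70).

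TDO2, the liver enzyme that opens the indole ring of tryptophan, had 0.866, 2.15, 1.82, 1.78 and 1.900 CPM in CS and 4.03, 2.82, 3.62, 2.36, 3.32 and 6.55 CPM on pVAD, with no overlap (log2 change 1.15, SE 0.42). Baseline levels of 1.48 to 3.79 CPM spread over both groups. The call was kept without each single library and without CS replicates 1 and 4, and was lost in the 10 paired libraries (0.95). Of 26 hepatocyte genes TDO2 was the only one called, and ALB had a log2 change of 0.07 (SE 0.27).

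GP6, the collagen receptor of platelets, had 4.91, 4.09, 5.58, 4.46 and 6.93 CPM in CS and 9.61, 7.36, 7.24, 9.04, 8.93 and 7.24 CPM on pVAD, again with no overlap (log2 change 0.66, SE 0.27). At Baseline it had 4.499 to 11.2 CPM. Leaving out CS replicate 2 reduced the log2 change to 0.59 and ended the call, as did leaving out CS replicates 1 and 4 (0.57). PPBP, a chemokine stored in platelets, gave a log2 change of 0.39 (SE 0.40), and 12 of 13 platelet genes were not called. Of the 13 platelet genes 8 had a log2 change below 0.

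ARL6IP1, a membrane-shaping protein of the endoplasmic reticulum, had 2.53, 3.35, 1.38, 1.78 and 3.27 CPM in CS and 4.45, 4.197, 4.54, 3.99, 6.39 and 4.88 CPM on pVAD (log2 change 0.94, SE 0.36). The groups did not overlap and no single library ended the call, but it was lost without CS replicates 1 and 4 (0.83). TRIM23, a ubiquitin ligase with a GTPase domain, had 2.502, 2.85, 3.76, 7.38 and 5.37 CPM in CS and 5.63, 6.57, 8.195, 8.201, 7.78 and 11.7 CPM on pVAD (log2 change 0.88, SE 0.31). Its levels at Baseline, 4.88 to 9.28 CPM, resembled those on pVAD, and it passed without CS replicates 1 and 4 with a log2 change of 1.001. C2orf16, a gene of the testis in humans, had 0.794, 2.25, 1.697, 0.956 and 0.676 CPM in CS and 3.05, 8.69, 2.51, 1.703, 1.59 and 5.02 CPM on pVAD (log2 change 1.56, SE 0.53).

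NIP7 (ENSSSCG00000033741), a ribosome biogenesis factor, showed the largest fold among the 15 on very few reads, and reached the average of 10 reads through pVAD libraries. It had 0, 0, 0, 1 and 1 reads in CS replicates 1 to 5 and 64, 46, 8, 9, 1 and 0 reads in pVAD replicates 1 to 6 (log2 change 4.92, SE 1.503). Most reads came from pVAD replicates 1 and 2, and pVAD replicate 6 had none. Pig 4 had 1 read in each library and counts as higher through scaling alone, by a log2 difference of 0.07. SYCP3, a protein of the meiotic chromosome axis, had 0, 24, 10, 0 and 12 reads in CS and 124, 36, 64, 53, 73 and 5 on pVAD (log2 change 2.45, SE 1.01), and was lost without pVAD replicate 1 (2.15).

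The other 6 increased transcripts among the 15 had log2 changes of 0.72 for the Integrator subunit INTS7, 0.89 for the cilium protein CCDC113, 0.73 for the GTPase GPN1, 0.89 for the melatonin receptor MTNR1A, 1.10 for the homeobox factor HOXA2 and 1.14 for the DNA repair factor XPA. Each lost its call without at least 1 library: INTS7 without pVAD replicate 6 (0.53), CCDC113 without CS replicate 4 (0.76), GPN1 without CS replicate 1 (0.54), MTNR1A without CS replicate 4 (0.69) or pVAD replicate 5 (0.81), HOXA2 without CS replicate 4 (0.955) or pVAD replicates 1 (0.99) or 2 (0.87), and XPA without CS replicates 1 (0.98) or 4 (1.05) or pVAD replicate 6 (0.76). In the 10 paired libraries INTS7 (0.55), MTNR1A (0.96) and XPA (0.77) were not called.

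A smaller set of transcripts passed regardless of which CS or pVAD library was left out. It held 92 transcripts, 60 increased and 32 decreased, and 53 of them (31 increased, 22 decreased) also passed in both fits with the animal as a block. Of the 53, 25 carry a gene symbol. This criterion was set after the values had been seen, and the genes named in this and the next paragraph, other than those given above, were chosen by it. Among the decreased transcripts were GIMAP8, a GTPase of lymphocytes, IK and ERH, which take part in splicing, ETHE1, the sulfur dioxygenase of mitochondria that clears sulfide, and CDC42SE1, an effector of the GTPase CDC42. CDC42SE1 had 9.43, 5.34, 8.001, 10.3 and 5.65 CPM in CS and 6.997, 3.604, 4.902, 4.46, 3.65 and 3.15 CPM on pVAD, lower in each of the 5 pigs (log2 change -0.79, SE 0.29). GIMAP8 had 16.8, 7.78, 8.56, 12.7 and 4.97 CPM in CS and 5.31, 5.41, 5.07, 4.91, 5.82 and 3.595 CPM on pVAD (log2 change -1.01, SE 0.29) and was lower on pVAD in 4 of the 5 pigs. ETHE1 had 16.4, 9.55, 12.7, 23.7 and 8.86 CPM in CS and 8.34, 10.7, 6.74, 7.37, 7.52 and 3.300 CPM on pVAD (log2 change -0.95, SE 0.30). IK and ERH had log2 changes of -1.07 and -1.06. None of these 5 passed without CS replicates 1 and 4, where their log2 changes ranged from -0.56 to -0.28.

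Several increased transcripts of this set were near the limit of detection, while SFTPC, C2orf16, ARL6IP1 and TRIM23, described above, averaged 95.2 to 270 reads per library. PTH, the parathyroid hormone gene, had 0, 1, 1, 0 and 14 reads in CS and 72, 46, 24, 45, 3 and 8 on pVAD, with the CS library of pig 4 above its pVAD library (log2 change 3.28, SE 1.28). The small nucleolar RNA gene SNORD116, which belongs to a cluster of near-identical copies, had 0, 0, 0, 0 and 2 reads in CS and 36, 133, 0, 11, 15 and 5 on pVAD. The olfactory receptor gene OR13C8 had 0, 0, 0, 0 and 1 reads in CS and 0, 13, 10, 28, 12 and 0 on pVAD. Reads of such multicopy families could be assigned to any of several copies. TUFT1, the tuftelin gene, was the best-read member, with 5.44, 14.9, 16.3, 5.599 and 16.9 CPM in CS and 16.8, 24.4, 20.3, 21.7, 15.9 and 22.95 CPM on pVAD (log2 change 0.78, SE 0.27). Its 2 lowest libraries were CS replicates 1 and 4, and without them the log2 change was 0.34 and did not pass. ING4, a chromatin reader of the decreased side, was also read little, with 18, 5, 0, 40 and 5 reads in CS and 0, 0, 1, 0, 0 and 0 on pVAD.

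Gene lists of pathways and cell types were then described by their counts, beside a median log2 change of 0.02 over all tested transcripts. The 41 lists held 877 distinct measured genes, of which 6 were called higher (1.11% of all tested transcripts were) and 25 lower (1.32%). Among all tested protein-coding genes 0.75% were called higher and 1.36% lower. A log2 change above 0 was found for 52.0% of all tested transcripts. For nuclear protein-coding genes with a symbol and 100 to 1000 reads per library this share was 43.6%, at a median of -0.05. SR and hnRNP proteins, which bind RNA, chaperones, mitochondrially encoded proteins and B cell genes had the lowest medians among lists of more than 10 genes. Lists of the heart, vessels, coagulation, complement and hypoxia stayed near the median of all transcripts.

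Splicing factors of the SR family, which bind exons and recruit the spliceosome, had a median log2 change of -0.46 over 15 genes, 13 of them below 0, with 3 called lower and none higher. SRSF1 had 5.101, 2.73, 2.23, 10.4 and 6.29 CPM in CS and 1.73, 0.954, 2.55, 2.43, 5.26 and 2.17 CPM on pVAD (log2 change -1.08, SE 0.49). SRSF9 and SRSF11 had log2 changes of -0.77 and -1.02. The 3 calls were lost without 7, 8 and 5 of the 11 libraries, respectively, each left out in turn. Most of these losses left the fold about as large, with SRSF1 down to -0.70 without CS replicate 4, SRSF9 to -0.22 without CS replicate 1 and SRSF11 to -0.58 without CS replicate 4. The list's median was -0.67 in pig 3 and -1.5 in pig 8, but -0.24, 0.02 and 0.28 in pigs 10, 12 and 4. The median was -0.11 without CS replicate 4, and no member was called.

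Heterogeneous nuclear ribonucleoproteins (hnRNPs), which package nascent transcripts, followed the same animals. Over 19 genes the median was -0.31 with 4 called lower, and by animal it was -0.80 in pig 3, -1.14 in pig 8 and between -0.15 and 0.26 in pigs 10, 12 and 4. HNRNPU, a scaffold of nuclear RNA, had 121, 45.2, 38.9, 334 and 28.3 CPM in CS and 50.6, 51.3, 17, 17.8, 39.01 and 75.7 CPM on pVAD (log2 change -1.44, SE 0.57). The CS library of pig 8 held more than any other and in pigs 10 and 4 the level was higher on pVAD. HNRNPA2B1, with 71.6, 22.3, 26.4, 47.3 and 46.1 CPM in CS and 33.8, 16.9, 11.8, 15.5, 40.4 and 17.2 CPM on pVAD, was the member that fell in all 5 pigs (log2 change -0.92, SE 0.44). HNRNPUL2 and HNRNPL were called with log2 changes of -0.96 and -0.63. Of the 11 libraries left out in turn, 1, 4, 7 and 6 ended the calls of HNRNPU, HNRNPUL2, HNRNPA2B1 and HNRNPL, respectively. No member was called without CS replicate 4, although the median stayed at -0.26 and HNRNPA2B1 at -0.88. A single one was called without CS replicate 1, at a median of -0.17, and with CS replicates 1 and 4 left out the median was 0.15. The 29 proteins of the small nuclear ribonucleoproteins had a median of -0.11 with none called, and of 0.00 without CS replicate 4.

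Chaperones of the heat shock family and the endoplasmic reticulum had a median of -0.36 over 25 genes, 22 below 0. PDIA4, a protein disulfide isomerase, had 32.2, 13.4, 14.7, 36.5 and 13.9 CPM in CS and 14.3, 13.1, 13.98, 11.97, 15.8 and 4.88 CPM on pVAD (log2 change -0.84, SE 0.30), and HYOU1, a hypoxia-induced chaperone, 22.1, 8.97, 5.48, 11.9 and 9.76 CPM and 6.65, 10.5, 6.93, 5.74, 7.89 and 3.004 CPM (log2 change -0.78, SE 0.36). The medians were -0.57 in pig 3, -0.73 in pig 8 and -0.07 to 0.12 in the other pigs, and the fitted median was -0.21 without CS replicate 4. HYOU1 did not pass with the animal as a block (-0.53), which left 1 called. PDIA4 lost its call without CS replicate 4 (-0.58) and in the 10 paired libraries (-0.54), and HYOU1 without 6 of the 11 libraries. Without CS replicates 1 and 4 neither passed, and the median was -0.14 with 18 of 25 genes below 0.

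**Figure D4:**
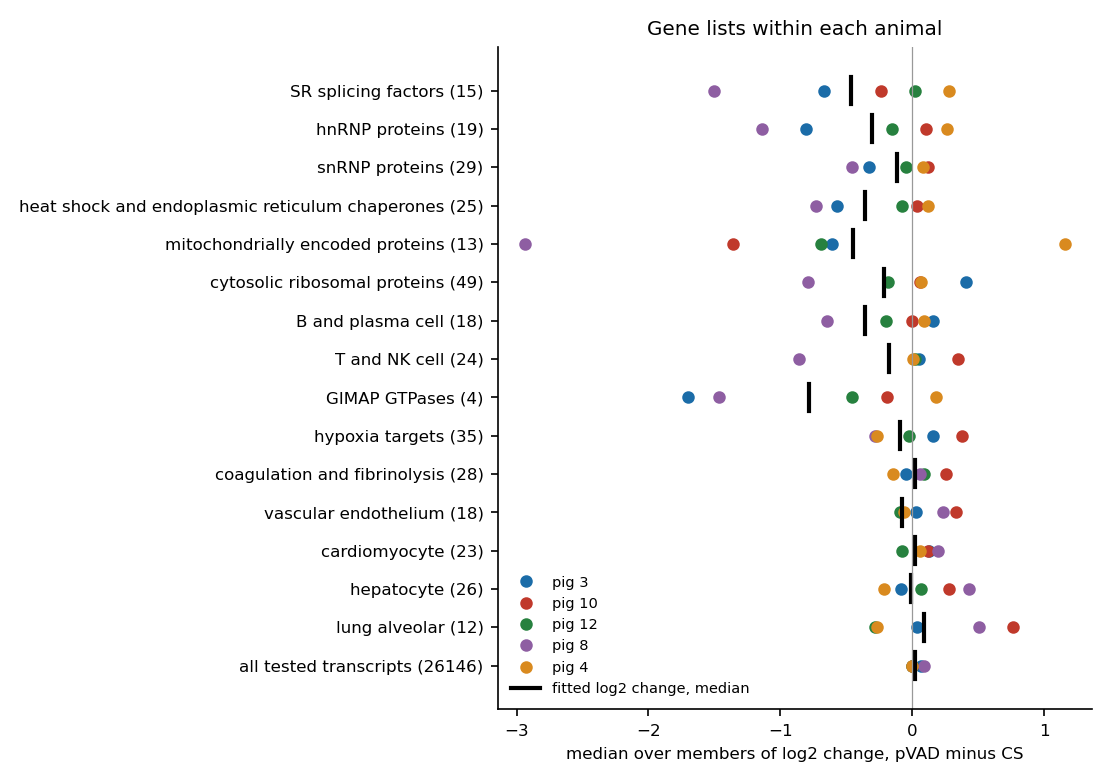
Median log2 difference between pVAD and CS over the members of 16 gene lists (x axis) in each of the 5 animals with both libraries (colored points) and in the fit (black bars), with the number of genes in parentheses. The RNA-binding and chaperone lists lie below 0 in pigs 3 and 8 and between -0.24 and 0.28 in the others. The mitochondrial list is at -2.94 in pig 8 and at 1.16 in pig 4.

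The 13 protein-coding transcripts of the mitochondrial genome, which encode subunits of the respiratory chain, all had fitted changes below 0, with a median of -0.45. Their summed level was 451 to 2691 CPM in CS and 305 to 2384 CPM on pVAD. After TMM scaling the direction was shared by 4 pigs, with medians of -0.61, -1.36, -0.69 and -2.94 in pigs 3, 10, 12 and 8, while pig 4 went up by 1.16. As an unscaled share of the counts these genes were higher on pVAD in 3 of the 5 pigs, and the CS library of pig 8, whose TMM factor is the lowest, held 0.0827% against a CS mean of 0.0972%. Without CS replicate 4 the fitted median was -0.04 and none was called. ATP8 was the only one called, with 3.37, 12.1, 12.1, 65.3 and 6.36 CPM in CS and 2.58, 7.74, 7.07, 2.35, 10.04 and 19.9 CPM on pVAD (log2 change -1.27, SE 0.60), and without CS replicate 4 its log2 change was -0.04. ATP8 was lost without 6 of the 11 libraries and with the animal as a block (-1.01). In that fit 3 others of the 13 were called lower. The 54 nuclear genes of the respiratory chain had a median of -0.12 with none called.

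Lymphocyte genes were among those that decreased. The 18 B and plasma cell genes had a median of -0.36, with CD37 and CD72 called lower. CD72, an inhibitory coreceptor of B cells, had 26.1, 10.7, 14.6, 28.4 and 14.2 CPM in CS and 10.9, 9.48, 11.9, 11.6, 13.97 and 9.800 CPM on pVAD (log2 change -0.74, SE 0.27). CD3D, a chain of the T cell receptor complex, had 7.27, 4.35, 3.03, 50.7 and 4.17 CPM in CS and 5.69, 6.91, 1.800, 3.89, 3.65 and 9.21 CPM on pVAD (log2 change -1.42, SE 0.59), and its log2 change turned to 0.14 without CS replicate 4. CD3E had up to 408 CPM in CS, at a median of 22.5, and up to 134 on pVAD, at a median of 26.9. The summed level of 24 T and NK cell genes was 304 to 1027 CPM in CS and 297 to 444 CPM on pVAD, with the median at 318 and 353. Over the B and plasma cell list the sums were 358 to 581 CPM and 348 to 411 CPM. The 4 GIMAP genes had a median of -0.79 with GIMAP8 called. CD3D did not pass with the animal as a block (-0.89). CD72 fell just below the fold limit with the block in 17 libraries (-0.58) and passed in the 10 paired libraries (-0.61). The B cell median was 0.03 without CS replicate 4, and neither CD37, CD72 nor CD3D was called. These lymphocyte levels moved together with the SR and hnRNP lists in the CS library of pig 8, and their part in those results was not tested.

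Mediators of inflammation showed few changes. TNF, the inflammatory cytokine, had 3.25, 4.35, 7.83, 10.7 and 3.34 CPM in CS and 1.58, 4.39, 2.34, 3.26, 3.04 and 0.246 CPM on pVAD (log2 change -1.24, SE 0.49). It fell in pigs 3, 12 and 8 and differed little in pigs 10 and 4, and without CS replicate 4 the log2 change of -0.91 did not pass. None of the other 44 cytokine and chemokine genes was called. IFI6, an interferon-induced gene, had 10.01, 5.14, 4.46, 8.42 and 4.29 CPM in CS and 4.09, 5.81, 3.04, 2.35, 2.28 and 4.43 CPM on pVAD (log2 change -0.82, SE 0.34), with 1.88 to 2.98 CPM at Baseline. IRF9, the DNA-binding subunit of the interferon-activated complex ISGF3, was called on 23 reads of a single library, CS replicate 4, and had none in the others. IFI6 lost its call without 5 of the 11 libraries. The median over 27 interferon-stimulated genes was 0.01. PSMB9, a subunit of the immunoproteasome, increased from 0.1203, 0.766, 1.67, 1.32 and 0.859 CPM to 1.42, 2.69, 2.24, 2.86, 2.04 and 2.66 CPM (log2 change 1.29, SE 0.58), higher in all 5 pigs, while PSMA7 of the core proteasome decreased (log2 change -1.24, SE 0.52). These calls were lost without 6 and 4 of the 11 libraries, respectively, and PSMA7 also with the animal as a block in 17 libraries (-0.99), though not in the 10 paired libraries (-1.12). A transcript typed as a pseudogene in the count table was named JUN only in the separate gene table (ENSSSCG00000031912). It had no read in CS and 1, 0, 1, 1, 10 and 0 reads on pVAD. Pooled over libraries its level was 3.10-fold that of a floor of 3 reads set for the CS group. The floor covers counting error in CS only, not that of the 13 pVAD reads. Of the 13 reads 10 came from pVAD replicate 5, without which this transcript was not called. It reached the 5 reads in total of the filter only through pVAD libraries. With the animal as a block neither this transcript (3.96) nor IRF9 (-3.93) passed. The JUN transcript was the only call among 23 AP-1 and immediate early genes, of which 15 had a log2 change below 0. Their median was -0.29, and -0.07 without CS replicate 4.

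Genes related to hypoxia and the circulation did not move as groups. Of 35 hypoxia targets only ANGPTL4, an inhibitor of lipoprotein lipase, was called, with 13.6, 5.41, 5.14, 10.1 and 6.96 CPM in CS and 5.38, 7.102, 4.19, 3.75, 4.39 and 2.41 CPM on pVAD (log2 change -0.86, SE 0.35). It was higher on pVAD in pig 10 and lower in the other 4, and it was lost without CS replicate 1 (-0.60) and in the 10 paired libraries (-0.67). The median of the hypoxia list was -0.09, and of 10 regulators of the HIF pathway -0.07. No gene was called among 31 vasoactive hormone genes (median 0.00), 18 shear-responsive endothelial genes (-0.05), 42 TGF-beta and BMP genes (-0.01), 28 coagulation genes (0.02), 21 complement genes (0.01) and 23 genes of hemolysis and heme handling (-0.02). The natriuretic peptide gene NPPB had a log2 change of 0.53 (SE 0.33) and the endothelin gene EDN1 of 0.80 (SE 0.70).

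Markers of the injured organ itself did not separate CS from pVAD. None of 23 cardiomyocyte genes was called, and their median was 0.02. Cardiac troponin T (TNNT2) had 9.09 to 16.3 CPM in CS and 2.96 to 13.4 CPM on pVAD (log2 change -0.44, SE 0.38). Of 18 vascular endothelial genes none was called either, and KDR, the VEGF receptor of endothelium, had a log2 change of 0.45 (SE 0.22), higher in 4 of 5 pigs. None of 13 skeletal muscle, 13 kidney tubule, 10 intestinal, 11 red cell, 9 neutrophil, 12 monocyte and 10 adipocyte genes was called. With the animal as a block 1 gene each was called lower in the adipocyte and keratinocyte lists and 1 higher among the vasoactive hormone genes.

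Genes of growth and protein synthesis included a few decreases. PCNA, the sliding clamp of DNA replication, fell in all 5 pigs from 1.35, 1.53, 2.04, 4.64 and 4.57 CPM to 0.0727, 0.6996, 0.996, 1.31, 1.33 and 1.38 CPM (log2 change -1.55, SE 0.62), and it was one of the few that passed without CS replicates 1 and 4 (-1.501). PCNA was not called when CS replicate 4 (-1.305) or 5 (-1.31) was left out. E2F1, which drives entry into S phase, had 29.6, 5.96, 5.26, 7.38 and 5.76 CPM in CS and 7.49, 7.48, 4.63, 4.25, 5.52 and 2.17 CPM on pVAD (log2 change -1.03, SE 0.45), and without CS replicate 1 its log2 change was -0.21. E2F1 was lost without 4 of the 11 libraries and with the animal as a block (-0.55). The 38 cell cycle genes had a median of -0.16, and of -0.05 without CS replicate 4. Of 49 cytosolic ribosomal protein genes, with a median of -0.22, RPS2 and RPS29 were called lower. That median was -0.04 without CS replicate 4 and -0.01 with the animal as a block. RPS29 fell in all 5 pigs, from 5.39, 3.21, 5.26, 16.1 and 11.1 CPM to 3.34, 0.869, 3.41, 2.28, 6.104 and 6.06 CPM (log2 change -1.16, SE 0.49). RPS29 and RPS2 were lost without 4 and 6 of the 11 libraries, respectively. The 18 aminoacyl-tRNA synthetases had a median of 0.07 and none called.

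Small noncoding RNA genes made up more of the calls than their number among the tested transcripts. Of 378 small nuclear RNA genes 43 were called higher and 21 lower, together 16.9%, and of 118 miRNA genes 13 were called higher and 1 lower, together 11.9%, beside 2.11% of 18894 protein-coding and 2.08% of 5831 lncRNA genes. These classes were barely read: the median small nuclear RNA gene had 1.09 reads per library and the median miRNA gene 2.36. Calls were also frequent among protein-coding genes read as little. Of 185 nuclear protein-coding genes with a symbol that averaged under 10 reads per library, 8 were called higher and 6 lower. Whether the RNA class or the low counts set these shares was not tested. All 118 miRNA genes together drew 1225 to 4100 reads in a CS library and 1465 to 3580 in a pVAD library. Reads were counted on the annotated hairpin gene, which does not show the mature miRNA or its arm, and the libraries were not made with a small RNA kit.

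The hypoxia-sensitive ssc-mir-200b (ENSSSCG00000024128), a miRNA of epithelial cells that targets ZEB transcription factors, had no read in any of the 5 CS libraries and 24, 5, 5, 2, 2 and 0 reads on pVAD. It was thus higher in all 5 pigs with both libraries, though on 38 reads in total, of which 24 came from pig 3. Pooled over libraries, its level was 9.07-fold that of a floor of 3 reads set for the CS group. This floor covers counting error in CS only. It covers neither that of the 38 pVAD reads nor the spread between animals. The fitted log2 change of ssc-mir-200b was 5.36 (SE 1.68). At Baseline it had 10, 0, 10, 1, 0 and 3 reads. The call was kept without each single library.

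The let-7 family member MIRLET7I showed the same kind of pattern, with no read in CS and 0, 2, 24, 3, 8 and 0 reads on pVAD. Its pooled level was 8.83-fold that of the same floor, which covers counting error in CS only, and it was higher in 4 of 5 pigs. A further 9 called miRNA genes had no read in CS either, and 8 to 20 reads in total on pVAD. They included the neighbors ssc-mir-221 and ssc-mir-222, which share a primary transcript in mammals, with 12 and 13 reads, and MIR487B with 20. MIR19B-1 of the miR-17-92 cluster and ssc-mir-371 had 2 and 1 reads in CS and 28 and 30 on pVAD, mostly from pVAD replicate 1. Outside pVAD, ssc-mir-708, ssc-mir-9815, MIR487B and MIR19B-1 had fewer than the 5 reads in total of the filter. They entered the fit only through their pVAD reads, so that their direction was set by the filter. Most of the miRNA calls depended on the fit. With the animal as a block in 17 libraries 11 of the 14 called miRNA genes were lost, with ssc-mir-200b, MIRLET7I and ssc-mir-9817 kept, and in the 10 paired libraries ssc-mir-9817 was lost as well. DESeq2 called 3 of the 14, namely ssc-mir-200b, MIRLET7I and ssc-mir-9858. ssc-mir-9858 was the only one that decreased, with 64, 6, 1, 1 and 20 reads in CS and 0, 0, 1, 9, 2 and 0 on pVAD.

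**Figure D5:**
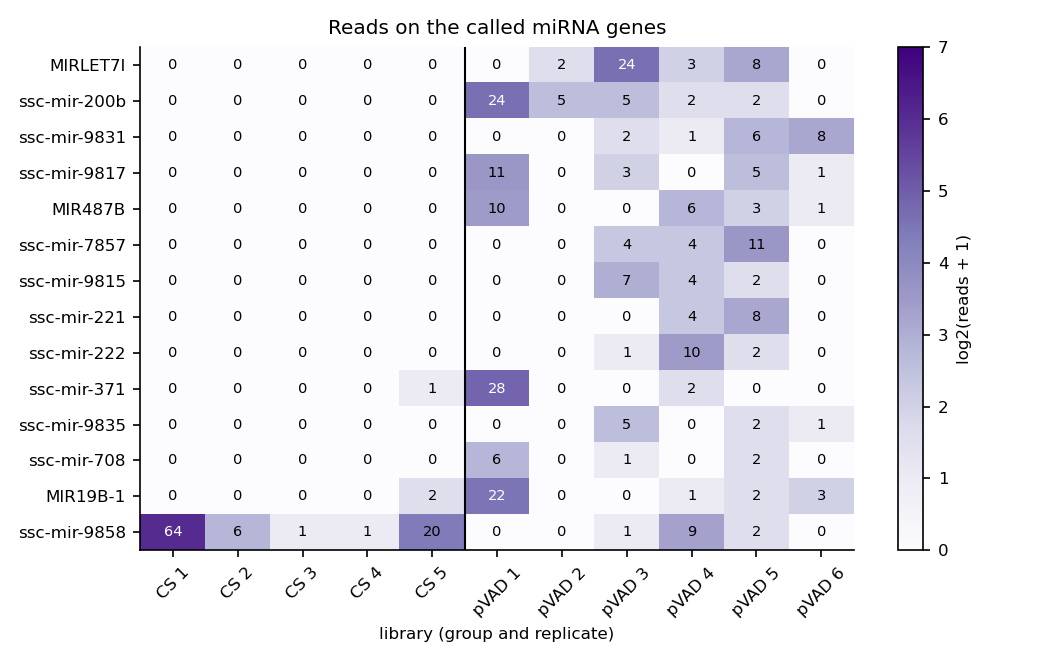
Reads on the 14 called miRNA genes (y axis) in the 5 CS and 6 pVAD libraries (x axis), colored by log2(reads + 1). Of the 13 genes called higher, 11 have no read in CS, and no cell on the pVAD side exceeds 28 reads.

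None of the 8 miRNA genes that averaged at least 10 reads per library was called. The best-read, ssc-mir-6782, had 55.8 ± 68.2 CPM in CS and 50.0 ± 55.0 CPM on pVAD (log2 change -0.16, SE 0.59). The myeloid ssc-mir-223 had 0.311 ± 0.285 and 0.730 ± 1.02 CPM (log2 change 1.18, SE 0.96), and MIR142 of blood cells 0.557 ± 0.897 and 0.585 ± 0.648 CPM (0.08, SE 1.14). For these the SD on pVAD exceeded the difference between the time points, while for ssc-mir-223 the SD in CS did not.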

How the data were processed

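RNA of pig serum was sequenced from 100 ng of total RNA per sample with a low-input kit. Per the labels and methods, the authors trimmed reads with Trim Galore 0.4.4, aligned them with STAR 2.4.2a and counted them per Ensembl gene in R 3.6.0 with featureCounts. What was deposited is a table of raw, unscaled counts. The genome build and strand setting are not given in the sources used here, so no coordinates are printed, and reads of overlapping genes cannot be told apart. Of 31908 genes 16698 carried a symbol in the count table.

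Transcripts with at least 5 reads in total entered 1 fit of 17 libraries (6 Baseline, 5 CS, 6 pVAD) in R 4.3.3 with edgeR 4.0.16 (TMM factors, quasi-likelihood test, two-sided, time point as the only term), with the contrast pVAD minus CS. The study's rule defined a call, with p below 0.05 (unadjusted) and more than 1.5-fold change. Following the study, CS replicate 6 did not enter. Depth was 18229243 to 71488943 counts per library over the 17. Floors of 3 reads cover counting error in the group without reads only. Log2 CPM used a prior count of 2.

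Named genes were the 15 with the smallest p per direction among called transcripts with a symbol, an average of at least 10 reads per library over CS and pVAD, and the same direction in all 5 animals, up to 4 called members of each list, and all called miRNA genes. Members and lists were chosen with earlier results of these data known. Replicates 1 to 6 are pigs 3, 10, 12, 8, 4 and 6 in the authors' sample sheet, so that equal numbers mark the same animal. After centering on the time point, CS and pVAD libraries of an animal had correlations across transcripts of -0.246 to 0.276 (5 pairs, median 0.141). Between different animals they were -0.305 to 0.304 (25 pairs, median 0.0088). Each sample is 1 serum draw of 1 animal.

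Results were recomputed with RLE size factors, with DESeq2 1.42.0, without a filter or with filterByExpr, with the animal as a block, with the 11 libraries alone, with all 18, without mitochondrial and ribosomal RNA genes, at p below 0.01, and with each library left out in turn. Leaving out Baseline libraries, CS replicates 1 and 4 together, and CS replicate 4 with pVAD replicate 6 was added after seeing the data. The edgeR step was also run on simulated counts. These had the same mean per gene in all libraries apart from set changes on pVAD, and no paired animals. That run therefore does not bear on calls that rest on single libraries or on few reads. No per-sample column of the count table was left unused.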

Additional observations from a re-analysis of the deposited data

Results flagged for a closer look

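Among the named genes, 28 of 154 groups of CS or pVAD libraries held a library far from the others by Dixon's criterion. Its usual chance rate of about 1 in 20 does not apply, because most of these genes were picked for a difference between the same libraries. Some flags rest on very few reads, such as that of OR13C8 in CS replicate 5. CS replicate 1 (pig 3) was the high one for 8 decreased transcripts, namely MPLKIP (9.84 CPM, others 1.58 to 2.85), DVL2 (24.2 CPM, others 5.72 to 7.86), ZIC5 (16.1 CPM, others 3.75 to 6.24) and PRKAG1 (7.97 CPM, others 0.683 to 1.46). The other 4 were JAM3 (72.2 CPM, others 28.2 to 32.7), RBBP6 (35.8 CPM, others 7.10 to 11.7), SRSF9 (13.3 CPM, others 2.55 to 5.51) and E2F1 (29.6 CPM, others 5.26 to 7.38). This library also had the largest share of transcripts without a read, 15.8%.

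CS replicate 4 (pig 8) was the high one for CD37 (87.6 CPM, others 7.42 to 22.6), CD3D (50.7 CPM, others 3.03 to 7.27) and ATP8 (65.3 CPM, others 3.37 to 12.1), and for GOT1 (21.7 CPM, others 7.38 to 11.3) and ING4 (1.82 CPM, others 0 to 0.433). IRF9 had 1.05 CPM in this library and no read in the other CS libraries. In this library the 4 most abundant transcripts took up 71.5% of the counts and the TMM factor, which enters the CPM, was 0.307. CS replicate 5 (pig 4) held the reads of 3 increased transcripts that the other CS libraries all but lacked, with 0.256 CPM of PTH, 0.0366 CPM of SNORD116 and 0.0183 CPM of OR13C8.

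On pVAD, replicate 6 stood apart for INTS7 (16.01 CPM, others 6.67 to 9.79), DVL2 (2.07 CPM, others 4.05 to 4.97) and PDIA4 (4.88 CPM, others 11.97 to 15.8). Replicate 5 stood apart for ARL6IP1 (6.39 CPM, others 3.99 to 4.88) and SRSF1 (5.26 CPM, others 0.954 to 2.55) and for the transcript with the symbol JUN that is typed as a pseudogene (0.217 CPM). Replicate 1 did so for GPN1 (4.42 CPM, others 6.02 to 6.91) and PSMA7 (8.25 CPM, others 2.10 to 3.84), and replicate 3 for S1PR3 (8.83 CPM, others 5.71 to 6.68) and for ING4, with 0.0192 CPM and no read in the others. Replicate 2 had 2.82 CPM of SNORD116 (others 0 to 0.654).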

How the results depend on the processing

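The count of called transcripts, 635 (289 higher, 346 lower), depended on the libraries more than on the scaling. It was 653 with RLE size factors, 650 without a filter, 616 with the 11 libraries alone and 833 with DESeq2. Leaving out each CS, pVAD or Baseline library in turn gave 388 to 999 called, 190 to 452 higher and 198 to 574 lower. With filterByExpr 182 were called higher. With all 18 libraries 598 were called lower, and 134 transcripts had an adjusted edgeR p below 0.05, which rested on CS replicate 6. At p below 0.01, 69 were called (30 higher, 39 lower). With CS replicates 1 and 4 left out, 239 were called (140 higher, 99 lower), fewer samples being compared. With the animal as a block, the pairing being that of the same pigs, 408 were called in the 10 paired libraries (187 higher, 221 lower).

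Of the named genes, CD3D, at -1.68 to 0.14 with single libraries left out, reversed without CS replicate 4 and without CS replicates 1 and 4 (0.43), where SRSF11 (0.11), HNRNPU (0.16), HNRNPL (0.15) and RPS2 (0.041) reversed too. In this last setting 65 of 80 named genes lost their call, against 25 of 81 with the block in 17 libraries and 33 in 10. Without CS replicate 4 the share of protein-coding counts, pVAD minus CS, turned to -4.835 percentage points and that of lncRNA to 3.29 (ranges with single libraries left out -4.835 to 6.96 and -6.45 to 3.29). Without CS replicate 2 the mitochondrial protein-coding share turned to 0.0039 (range -0.0255 to 0.0039). The share of small nuclear and nucleolar RNA was -0.00175 within animals, and also without pVAD replicate 6 (range -0.00175 to 0.0102). The cause of these shifts was not tested. Genes averaging under 10 reads per library are limited by depth.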

Other observations

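Some transcripts of the circulation moved the same way in all 5 pigs without being called, and were picked after their values had been seen. The hemoglobin gene HBB was lower on pVAD in all 5 (log2 change -0.35, SE 0.36), as were the coagulation factor gene F7 (-0.65, SE 0.46) and KLF4, a transcription factor of endothelium under laminar flow (-0.86, SE 0.49). RBP4, the retinol carrier made by the liver, was higher in all 5 (0.92, SE 0.49), and so was ssc-mir-9813 (2.42, SE 1.32), which averaged 10.4 reads per library. None of the 5 had an unadjusted edgeR p below 0.05, and over all tested transcripts 706 were higher and 450 lower in all 5 pigs.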
